A study of Homo sapiens with 10 samples.

Results

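Chaperone genes, 8 in all, were examined in a comparison of RNA 5-methylcytosine (m5C) between MDA-468, a human breast cancer line, and MCF-10A, a line of human mammary epithelial cells that is not tumorigenic. They were HSP90AA1, HSP90AB1, HSP90B1, CANX, CALR, HSPA5, HSPA8 and DNAJC3, taken by Entrez identifier from the deposited site lists and the differential table. The 3 files held 6037 genes with an identifier, among them all of the 8 but HSPA8. The 8 genes held 5 of the 8320 sites listed for MDA-468, 2 of the 5194 sites listed for MCF-10A and 5 of the 1795 differential sites. The m5C sites came from methylated RNA immunoprecipitation (MeRIP), in which an antibody against 5-methylcytosine pulls down fragments of polyadenylated RNA that are then sequenced beside the input RNA. The libraries were MDA-468 MeRIP (n = 2), MDA-468 input (n = 2), MCF-10A MeRIP (n = 2), technical replicates of the MCF-10A MeRIP (n = 2) and MCF-10A input (n = 2), all from untreated cultures. The labels describe the culture of MDA-MB-468 for every sample, and the culture of MCF-10A is not described separately. Each cell line has a single merged site list, deposited as consistent m5C sites. How consistency was judged is not given, so a gene without a listed site may still have had one in a single replicate. No value has a replicate error, the sequencing depth is unknown, and every comparison between the lines compares 2 lists. The genes were selected on their presence in these lists and on the p-values and fold changes there, so those values are described without a test.

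Molecular chaperones help other proteins to fold. HSP90 proteins are ATP-driven clamps that mature kinases and steroid receptors in the cytosol, with a paralog in the endoplasmic reticulum (ER), and they work with HSP70 proteins and their J-protein partners. In the ER, calnexin and calreticulin hold newly made glycoproteins through their sugars. Tumour cells commonly make large amounts of these proteins, and the ER chaperones are induced by the unfolded protein response.

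Sites could be placed in a transcript for 3 genes of the group, HSP90AA1, HSP90AB1 and CANX. All 3 lay in stretches of coding RNA rich in purines. The sites of HSP90B1, CALR, HSPA5 and DNAJC3 were single blocks that could not be placed. Their composition was not measured, so the purine-rich stretches are not read as a feature of the whole group. A site that spans an exon junction can be placed in a transcript by the exact length of the intron it skips, without carrying coordinates from hg19, the build of the files, to another build. The 299-nt intron skipped by the differential site of HSP90AA1 matched the intron between exons 4 and 5 of 11 in GENCODE release 29 transcript HSP90AA1-201. The 136-nt intron in the HSP90AB1 site matched that between exons 5 and 6 of 12 of HSP90AB1-202. The CANX site skipped introns of 1896 and 1831 nt, and its middle block had the full 80 nt of exon 14, which set it in exons 13 to 15 of 15 of CANX-201. Each of these matched a single place in its gene. The transcript sequences of the 3 sites are shown, as the only ones of the group that could be placed. Letters are DNA letters of the transcript, 5′ to 3′, and capitals mark the bases that lay both in the site of the MDA-468 list and in the site of the differential table.
HSP90AA1: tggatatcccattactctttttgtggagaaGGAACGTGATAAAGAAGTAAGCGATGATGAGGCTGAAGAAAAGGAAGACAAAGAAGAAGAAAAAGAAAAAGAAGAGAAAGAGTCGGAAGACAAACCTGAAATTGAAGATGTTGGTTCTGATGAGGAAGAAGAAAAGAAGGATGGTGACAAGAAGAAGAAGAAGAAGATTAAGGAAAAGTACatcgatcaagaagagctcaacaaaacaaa
HSP90AB1: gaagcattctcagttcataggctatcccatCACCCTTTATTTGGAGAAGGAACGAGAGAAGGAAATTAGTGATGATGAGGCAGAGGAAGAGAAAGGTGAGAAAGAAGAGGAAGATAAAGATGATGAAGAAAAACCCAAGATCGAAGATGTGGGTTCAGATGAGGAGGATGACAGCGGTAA
CANX: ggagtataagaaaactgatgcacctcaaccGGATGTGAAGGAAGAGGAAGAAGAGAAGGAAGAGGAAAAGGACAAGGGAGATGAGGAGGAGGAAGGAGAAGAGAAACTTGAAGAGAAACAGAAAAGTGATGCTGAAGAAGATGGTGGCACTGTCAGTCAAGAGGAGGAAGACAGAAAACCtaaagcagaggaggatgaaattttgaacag
The 3 stretches are 240, 180 and 210 nt long and hold 22, 21 and 20 cytosines. Cytosine made up 9.17% of the HSP90AA1 stretch against 18.1% of its coding sequence, 11.7% against 21.3% in HSP90AB1, and 9.52% against 18.8% in CANX. Purines, A and G, made up 75.4% of the HSP90AA1 stretch against 58.9% of its coding sequence, 70.6% against 55.9% in HSP90AB1, and 79.0% against 57.5% in CANX. Of all windows of the same length in the coding sequence, 2.81% held fewer cytosines than the HSP90AA1 stretch, 5.72% fewer than that of HSP90AB1 and 0.383% fewer than that of CANX. All 3 stretches were wholly coding.

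Read in frame, the lysine codons AAA and AAG made up 24.1% of the whole codons in the HSP90AA1 stretch, against 10.9% of its coding sequence. They made up 13.6% against 10.4% in HSP90AB1 and 15.9% against 9.29% in CANX. In both cytosolic HSP90 genes the stretch falls in the part that encodes the charged linker between the ATP-binding domain and the middle domain, from codon 214 to 294 of 732 in HSP90AA1 and from codon 203 to 263 of 724 in HSP90AB1. In CANX it falls in the part for the cytosolic tail, codons 512 to 582 of 592.

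HSP90AA1, the stress-inducible cytosolic HSP90 gene, and HSP90AB1, its constitutive paralog, had their sites at the corresponding junction. The junction lay after 663 nt of coding sequence in HSP90AA1 and after 648 nt in HSP90AB1, and these positions faced each other when the coding sequences were aligned. The exon before the junction had 134 nt in both genes, and the exon after it had 318 nt in HSP90AA1 and 309 nt in HSP90AB1. In the MDA-468 list, the HSP90AB1 site began 40 nt before the junction and ended 140 nt after it. The HSP90AA1 site began 8 nt after the junction and ended 189 nt after it. The list sites had 132 aligned positions in common, of which 98 were identical. Across the coding sequences 1652 of 2172 aligned positions were identical (76.1%).

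**Figure D1:**
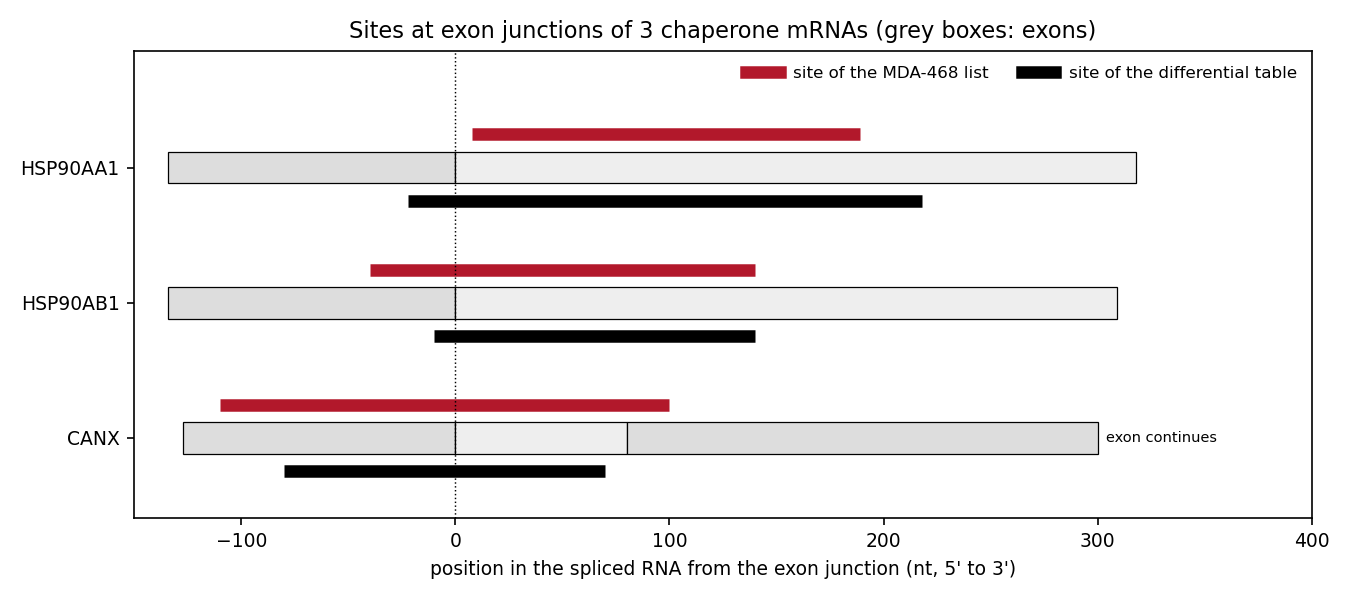
Position of the HSP90AA1, HSP90AB1 and CANX sites in spliced RNA, in nt from the exon junction (x axis), with one gene per row, exons as grey boxes, sites of the MDA-468 list in red above and sites of the authors' differential table in black below. The differential sites of both HSP90 genes crossed the corresponding junction, the HSP90AA1 site of the MDA-468 list began 8 nt after it, and the CANX site of the MDA-468 list ended 100 nt after its first junction.

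Reads of 50 nt from the HSP90 genes can also come from related copies, which makes their sites uncertain. With up to 2 mismatches, 113 of the 191 50-nt windows in the HSP90AA1 stretch (59.2%) also occurred in annotated transcripts of 5 other genes, and 94 of 131 in HSP90AB1 (71.8%) in 4 other genes. Without mismatches these were 32 and 4 windows. None of the 161 windows of the CANX stretch was shared. Over whole transcripts, shared windows with up to 2 mismatches made up 59.9% in HSP90AA1, 70.4% in HSP90AB1, 53.5% in HSP90B1, 63.0% in HSPA8, 32.7% in HSPA5 and 2.58% in DNAJC3. CANX and CALR had none. How the authors' processing placed such reads is not given in the sources used here.

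The first comparison asked which of the 8 genes had a site in each line. HSP90AA1, HSP90AB1, HSP90B1 and CANX had 1 site each in MDA-468 only, HSPA5 had 1 site in MCF-10A only, and DNAJC3 had 1 in each line. CALR and HSPA8 had no site in either list. For comparison, of 20056 protein-coding genes 25.3% had a site in either line, which comprised 10.1% with MDA-468 sites only, 2.87% with MCF-10A sites only and 12.3% with both. The genes were chosen with these lists known, so the 4 of 8 cannot be read against the 10.1%.

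Among HSP90 genes, HSP90AA1 had its MDA-468 site on the minus strand at chr14:102551147-102551327 (hg19), a single block of 181 nt. Its p-value from the authors was 1e-119, which ranked 48th of 8320 sites. HSP90AB1 had a site on the plus strand at chr6:44217852-44218167, with blocks of 40 and 140 nt and a p-value from the authors of 2e-68, rank 116. HSP90B1, which encodes the ER paralog GRP94, had a block of 120 nt on the plus strand at chr12:104341089-104341208, with 7.9e-47 and rank 272. Its site could not be placed in a transcript, because it spans no junction, and 21.4% of the sites of the list were shorter. At most 3.26% of MDA-468 sites had a smaller p-value than any of these 3, and none of the 3 overlapped an MCF-10A site.

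Of the lectin chaperones, CANX, which encodes the membrane-bound calnexin, had the smallest p-value of the group. Its MDA-468 site had blocks of 110, 80 and 20 nt on the plus strand of chr5:179151675-179155611, a length of 210 nt over a span of 3937 nt. The authors' p-value of 1e-184 ranked 24th of 8320. Sites of 3 or more blocks made up 2.63% of the MDA-468 list. CALR, which encodes the soluble calreticulin of the ER, had no site in either list but did have a differential site.

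Of the HSP70 genes, HSPA5, which encodes the ER chaperone BiP, had a block of 240 nt at chr9:127997485-127997724 on the minus strand in MCF-10A only. Its p-value of 1e-37 was an ordinary one for that list, where 61.3% of sites had a smaller one. HSPA8, the constitutive cytosolic HSP70 gene, appeared in none of the 3 files. Transcript levels were not analysed here, so the lack of a site does not show a lack of m5C.

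DNAJC3 encodes an ER J protein, also known as an inhibitor of the stress kinase PERK, and was the only one of the 8 genes with a site in both lists. On the plus strand of chromosome 13, its MDA-468 site lay at 96445805 to 96446015, a block of 211 nt, and its MCF-10A site at 96445745 to 96446045, a block of 301 nt. The MDA-468 site lay wholly within the MCF-10A site. Within its own list, 35.6% of MDA-468 sites had a smaller p-value than its 6.3e-17, and 24.4% of MCF-10A sites a smaller one than its 1e-121. The p-values themselves were not compared between the lists, whose medians of -log10 p were 12.4 in MDA-468 and 52.6 in MCF-10A. Over all sites, 47.7% of MDA-468 sites overlapped an MCF-10A site and 74.3% of MCF-10A sites overlapped an MDA-468 site. For the chaperones these were 1 of 5 and 1 of 2, which cannot be read against those shares, since the genes were chosen with these lists known.

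**Figure D2:**
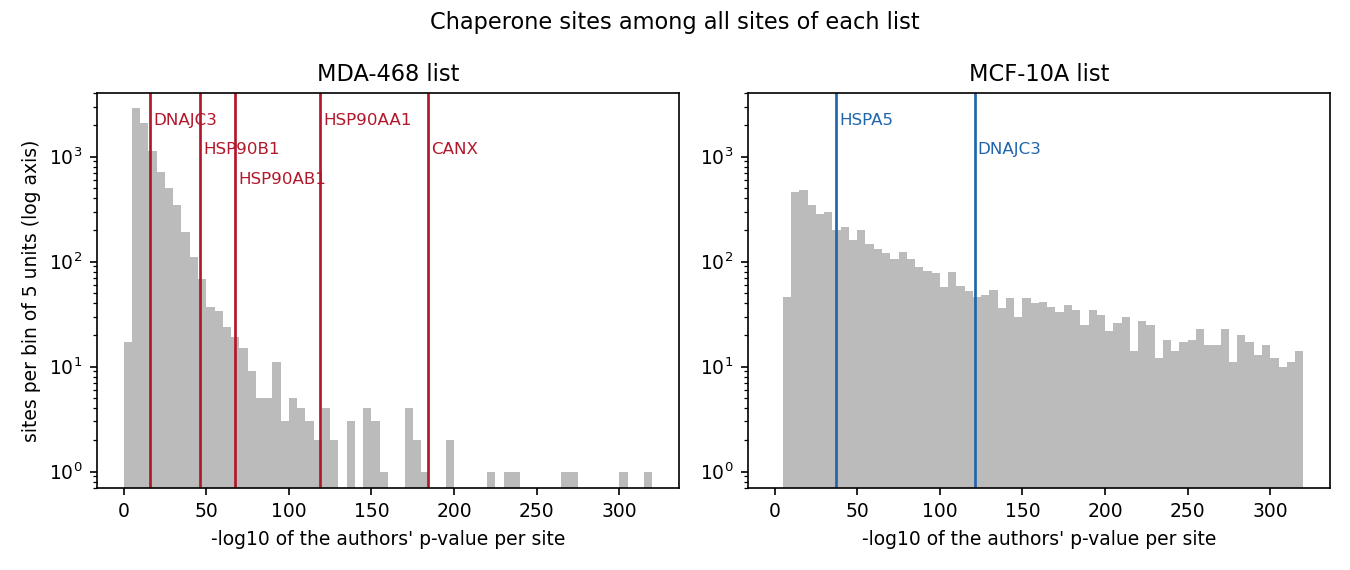
Number of sites (y axis, log scale) by -log10 of the authors' p-value (x axis) in the MDA-468 list (left) and the MCF-10A list (right), with the chaperone sites as coloured lines. Sites with a p-value deposited as 0, 14 in MDA-468 and 225 in MCF-10A, are not drawn. CANX, HSP90AA1, HSP90AB1 and HSP90B1 lie in the sparse right-hand part of the MDA-468 list, while DNAJC3 and HSPA5 lie among many sites.

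Most MDA-468 sites with p-values this small had a counterpart in MCF-10A. Of the 273 MDA-468 sites with a p-value up to that of HSP90B1, 227 (83.2%) overlapped an MCF-10A site. Among the 4355 MDA-468 sites without such an overlap, CANX ranked 5th by p-value, HSP90AA1 11th, HSP90AB1 24th and HSP90B1 46th. The genes were chosen with these p-values and lists known, so neither the share nor the ranks can be read as a result.

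The second comparison used the differential sites that the authors called between the lines. Positive log2 fold changes were read as higher in MDA-468, since 381 of the 389 sites with a positive value overlapped an MDA-468 site and 19 an MCF-10A site. In the authors' deposited table, sites of 4 of the 8 genes were higher in MDA-468 and that of DNAJC3 was higher in MCF-10A. Of all 1795 sites in the authors' deposited table, 21.7% were higher in MDA-468, while 78.3% were higher in MCF-10A. Of protein-coding genes, 1.47% had a differential site higher in MDA-468 and 5.21% one higher in MCF-10A. This contrast took part in choosing the genes, so nothing is read from these shares.

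CANX had a log2 fold change of 2.51 in the authors' deposited table, 5.70-fold, over 150 nt at chr5:179151705-179153750. HSP90AB1 had 1.88, 3.68-fold, over 150 nt at chr6:44217882-44218167 in the authors' deposited table. HSP90AA1 had 1.32, 2.50-fold, over 240 nt at chr14:102551118-102551656 in the authors' deposited table. CALR had 1.08, 2.11-fold, over 150 nt on the plus strand at chr19:13054528-13054677 in the authors' deposited table. DNAJC3 had -1.32 over 420 nt at chr13:96445656-96446075 in the authors' deposited table, a stretch that took in both of its list sites. HSP90B1 and HSPA5, each with a site in 1 list only, had no differential site.

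The 4 sites higher in MDA-468 combined small fold changes with very small error rates. In the authors' deposited table they ranked 257th (CANX), 330th (HSP90AB1), 372nd (HSP90AA1) and 383rd (CALR) by size among the 389 sites higher in MDA-468. By the differential false discovery rate CANX ranked 2nd, HSP90AB1 10th, HSP90AA1 8th and CALR 12th of the same 389, with log10 values of -115, -43.7, -51.2 and -30.6 in that order in the authors' deposited table, where the median was -3.53. The DNAJC3 value was -2.96 in the authors' deposited table, near the median of -3.43 for sites higher in MCF-10A.

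The same 4 sites had some of the lowest fold enrichments of MeRIP over input. The ratio in the authors' deposited table was 1.16 for CANX, 1.17 for HSP90AB1, 1.37 for CALR and 1.79 for HSP90AA1. In the authors' deposited table the CANX value was the lowest and the HSP90AB1 value the second lowest of the 389 sites higher in MDA-468, whose median was 4.32. CALR ranked 9th and HSP90AA1 27th from the lowest. DNAJC3 had 10.8 in the authors' deposited table, below the median of 23 for sites higher in MCF-10A. It is not stated which libraries enter this ratio, so it may draw on both lines. Peak p-values were also larger in the authors' deposited table than in the MDA-468 list for CANX (1.5e-07 against 1e-184) and HSP90AB1 (1.4e-08 against 2e-68). For HSP90AA1 they were 1e-162 in the authors' deposited table and 1e-119 in the list.

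**Figure D3:**
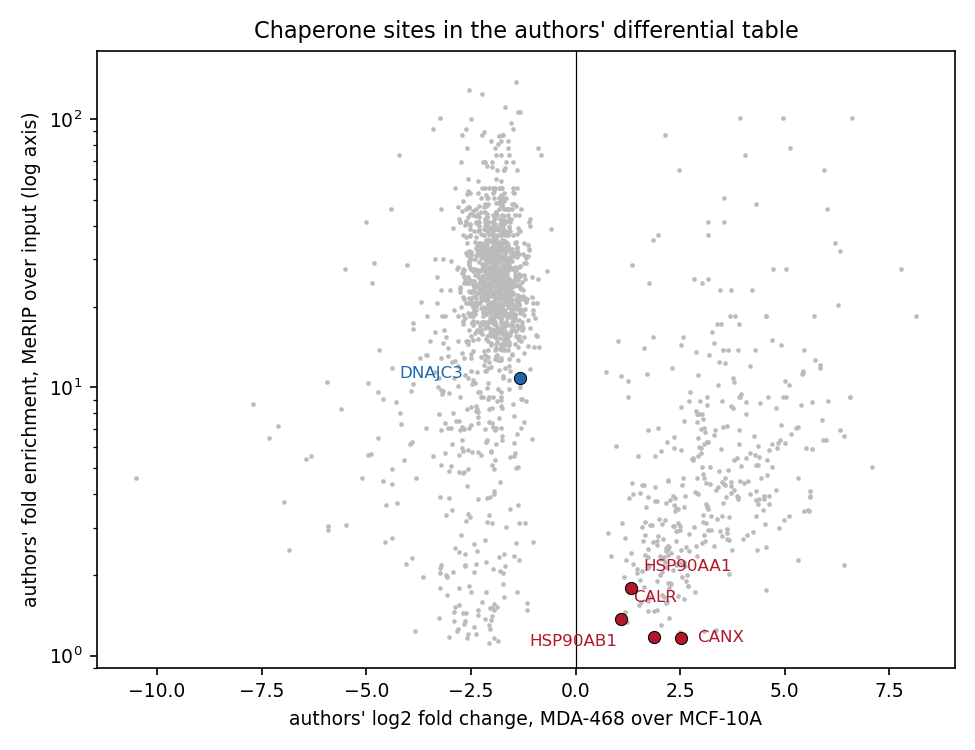
Authors' fold enrichment of MeRIP over input (y axis, log scale) against their log2 fold change of MDA-468 over MCF-10A (x axis) for the 1795 sites of the authors' deposited table in grey, with the chaperone sites in colour. HSP90AA1, CALR, HSP90AB1 and CANX lie at the lower edge, with enrichments from 1.16 to 1.79, and DNAJC3 at 10.8.

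Composition was then compared over the sites that could be placed. By intron length, 642 of the 993 multi-block MDA-468 sites in named genes could be placed at a single spot, and 172 of 415 in MCF-10A. The median purine share of the placed sites was 50.4% (interquartile range 44.5 to 59.0) in MDA-468 and 47.3% (44.6 to 51.4) in MCF-10A. CANX ranked 32nd and HSP90AB1 75th of 642 by purine share in MDA-468, and 28th and 42nd by lowest cytosine share. A purine share over 70%, a limit set after the values were seen, was found at 76 of 642 placed MDA-468 sites (11.8%). All 76 were among the 554 without an overlap in MCF-10A. None of the 88 placed MDA-468 sites that overlapped an MCF-10A site, and none of the 172 placed MCF-10A sites, passed it.

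Among the 12 placed MDA-468 sites that had no overlap in MCF-10A and a p-value up to that of HSP90B1, 11 were over 70% purine and 6 over 75%, a limit that HSP90AB1 does not pass. The other 34 of the 46 such sites could not be placed by intron length and do not enter this count, and apart from HSP90AA1 their composition was not measured. Of the 8 placed MDA-468 sites with p-values this small that did overlap an MCF-10A site, 0 were over 70% purine. Besides CANX and HSP90AB1, the 11 lay in 9 other genes, such as the phosphatase gene PPM1G (78.1%), the histone chaperone gene SET (76.1%), the myosin gene MYO6 (83.9%) and LUC7L3 (79.3%). The exception among the 12 was the mucin gene MUC6 (38.4%). Of the 542 other placed sites without an overlap, which had larger p-values, 65 were over 70% purine. In the authors' deposited table, placed sites higher in MDA-468 with a fold enrichment under 2 included those of HSP90AA1, HSP90AB1 and CANX, and 12 of 15 were over 70% purine. Without these 3 chosen genes they were 9 of 12. Among placed sites higher in MDA-468 with a fold enrichment of 2 or more in the authors' deposited table, 19 of 68 were (27.9%). Of those higher in MCF-10A with a fold enrichment under 2 in the authors' deposited table, 0 of 13 were. Cytosine content moved with these sites, with a median of 9.94% for those 15 and 26% for those 13. The part of cytosine content in the p-values and fold changes was not tested. The p-value limit was that of a chosen gene, and the fold enrichment limit took in the chosen sites of HSP90AA1, HSP90AB1 and CANX. The counts under these limits are therefore a description.

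**Figure D4:**
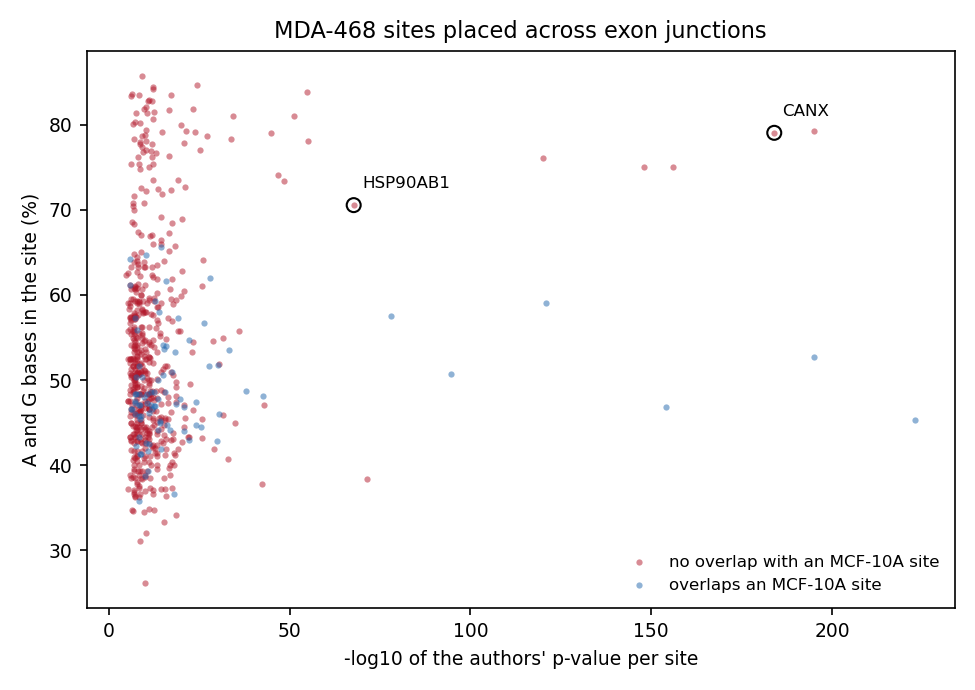
Share of A and G bases (y axis, %) against -log10 of the authors' p-value (x axis) for the MDA-468 sites placed across exon junctions, with sites that have no overlap with an MCF-10A site in red and those that do in blue. CANX at 79.0% and HSP90AB1 at 70.6% stand with other red sites of small p-values above 70%, a range that holds no blue site. The 2 placed sites with a p-value deposited as 0 are not drawn.

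The whole transcripts of the 8 genes were not alike in composition. Cytosine made up 26.3% of CALR and between 17.9% (HSP90B1) and 21.8% (HSP90AB1) of the other 7. The median over protein-coding genes was 24.5%, with 28.9% for genes that had MDA-468 sites only. HSP90AA1 (18.3%), HSP90AB1, HSP90B1 and CANX (18.8%) thus had lower shares than either median, and so did DNAJC3 (18.6%), HSPA5 (21.0%) and HSPA8 (21.4%). The medians were 22.7% for genes with sites in both lines and 23.1% for genes with MCF-10A sites only. The DNAJC3 transcript was the longest, 5591 nt with a 3′ untranslated region of 3962 nt, and that of CALR the shortest, at 1903 nt.

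The genes were then set beside a wider set of 156 chaperone and protein folding genes in 6 lists. Without the 8 genes, 11 of 148 had a site in MDA-468 only (7.43%, against 10.1% of protein-coding genes), 4 in MCF-10A only (2.70% against 2.87%) and 12 in both (8.11% against 12.3%). With p-values up to 1e-10, the count in MDA-468 only was 3 (2.03%, against 5.44% of protein-coding genes), and it was also 3 with the MDA-468 list reduced to the length of the MCF-10A list. Of these 148 genes, the authors' deposited table held 1 with a site higher in MDA-468 (0.676%, against 1.47% of protein-coding genes) and 4 with sites higher in MCF-10A (2.70% against 5.21%).

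Of 27 genes of the HSP90 family and its co-chaperones, 2 besides the 3 HSP90 genes had a site, both in both lines (7.41%, against 12.3% of protein-coding genes). They were FKBP5 (2 sites in each line) and PPID (1 in each), which encode prolyl isomerases that bind HSP90 with steroid receptors. Neither had a differential site. FKBP8, a membrane-bound member of the FKBP family, had no site in either list but in the authors' deposited table a differential site higher in MCF-10A, at a log2 fold change of -1.17.

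Of 15 genes of lectin chaperones and glycoprotein quality control, 2 besides CANX had a site (20.0% with CANX, against 25.3% of protein-coding genes). UGGT1, the sensor that returns misfolded glycoproteins to calnexin and calreticulin, had 4 sites in MDA-468 and 3 in MCF-10A, all overlapping a site of the other line. In the authors' deposited table both of its 2 sites were higher in MCF-10A, at -1.34 and -2.25 on the log2 scale, with fold enrichments of 23.8 and 30.3. MAN1B1, an ER mannosidase gene, had a single site, in MDA-468 only, and the largest fold change of the wider set in the authors' deposited table, 4.08 on the log2 scale with a fold enrichment of 8.83. CANX and CALR thus differed in direction from UGGT1 in the authors' deposited table.

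Of 30 genes of ER HSP70, J proteins and disulfide isomerases, 4 had a site in both lines (DNAJC3, SEC63, FKBP9 and FKBP14), 2 in MDA-468 only (PDIA6 and CRELD2) and 1 in MCF-10A only (HSPA5). In that order these were 13.3%, 6.67% and 3.33% of the list, against 12.3%, 10.1% and 2.87% of protein-coding genes. FKBP14 (-1.87) and FKBP9 (-1.23) had, like DNAJC3, sites higher in MCF-10A, with fold enrichments of 15.8 and 13.4 in the authors' deposited table. Of 24 genes of the unfolded protein response and ER-associated degradation, 3 had a site in both lines: ATF6, one of the stress sensors, PPP1R15B, a phosphatase subunit that reverses the block of translation, and the ubiquitin-conjugating enzyme gene UBE2G2. DERL1 and PPP1R15A had a site in MDA-468 only and HERPUD2 in MCF-10A only. Genes with sites in both lines, MDA-468 only and MCF-10A only thus made up 12.5%, 8.33% and 4.17% of the list. The shares of protein-coding genes were 12.3%, 10.1% and 2.87%. None of these 6 genes of the list had a differential site.

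Of 41 genes of the HSP70 family, its exchange factors and cytosolic J proteins, 6 had a site in MDA-468 only (DNAJB2, HSPA1L, DNAJB6, DNAJA4, DNAJC21 and HSPA2), 14.6% against 10.1% of protein-coding genes. With p-values up to 1e-10, 0 of the 41 genes did, against 5.44% of protein-coding genes. At their best sites, between 66.4% (DNAJB2) and 97.7% (HSPA2) of the MDA-468 list had smaller p-values. CANX and the HSP90 genes were chosen with their p-values known, so their small values cannot be read against these. Sites in both lines were found in BAG1, DNAJC14 and DNAJC18 (7.32%, against 12.3% of protein-coding genes). BAG5 and DNAJC16 had a site in MCF-10A only (4.88% against 2.87%). Of 19 genes of the CCT complex, small heat shock proteins and the mitochondrial chaperonin, only CCT3 had a site, in MCF-10A.

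**Figure D5:**
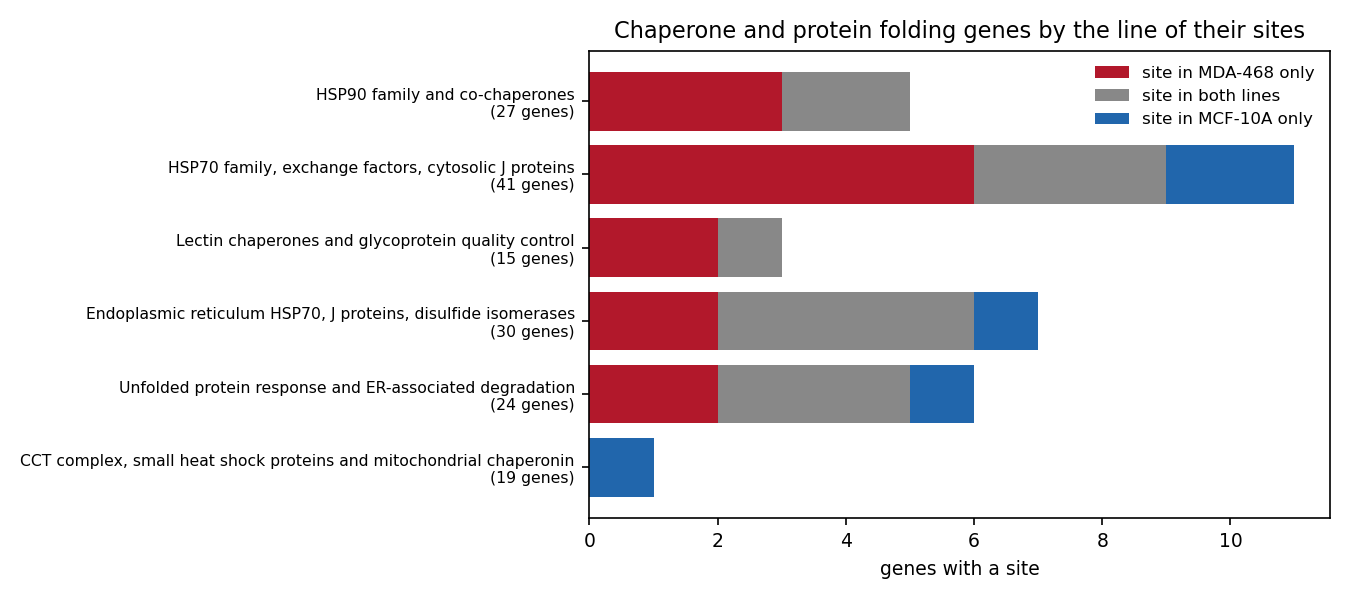
Number of genes with a site (x axis) in each of 6 lists of chaperone and protein folding genes, split by line into MDA-468 only (red), both lines (grey) and MCF-10A only (blue), with the list size in brackets. As deposited, the HSP70 list has the most genes in MDA-468 only (6, or 14.6% against 10.1% of protein-coding genes). With p-values up to 1e-10 it has 0, and the HSP90 list has 3, all chosen with their p-values known. The list of ER HSP70, J proteins and disulfide isomerases has the most in both lines (4, or 13.3% against 12.3% of protein-coding genes).

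Where a gene of the 6 lists had overlapping sites in the lines, the MCF-10A site was mostly the longer. Over 20 such pairs, the MCF-10A site was longer in 17, as at DNAJC3, equal in 2 and shorter in 1, at FKBP5. The same held for 80.3% of all 4133 overlapping pairs.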

How the data were processed

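Per the labels' protocols, fragments of polyadenylated RNA were about 100 nt long, each precipitation took 25 µg of RNA and 7 µg of antibody, and libraries were read as 50-nt single reads. Per the submitters' processing notes, reads were aligned with TopHat to hg19. Per the file headers, the differential table used Tophat2 and exomePeak with UCSC known genes. The site lists carry a p-value deposited by the authors, given as 0 where too small. The table carries the authors' ratio of MeRIP over input, their log2 fold change and, as scores, the logarithms of its p-values and false discovery rates. The log column of site calling equals log10 of the deposited p-values, so the others were read as log10. Other columns used, deposited by the authors, give block counts. The sources used here do not give the rules for merging replicates.

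The genes and lists were chosen with earlier results of these data known. All 8 genes are named. Of the wider lists every gene with a site or differential site was eligible, up to 30, first by a differential site, then by number of sites and p-value. Other genes were named after their values were seen. Sites overlapped when exon blocks shared at least 1 bp on the same strand. Entrez identifiers were named through the RefSeq gene table (GRCh38.p14), 5249 of 5280 in MDA-468 and 3677 of 3704 in MCF-10A. Multi-block sites were placed in GENCODE release 29 transcripts by exact intron lengths within the named gene. Sequences are those of the transcripts, not of hg19. The HSP90AA1 site of the MDA-468 list, a single block, was set by its distance to the differential site in the same build. Representative transcripts were principal ones with the longest coding sequence, found for 18558 of 20056 protein-coding genes. The overlap step was checked on simulated sites. Python 3.11.15, pandas 2.3.3, numpy 2.4.6, Biopython 1.88 and matplotlib 3.10.9 were used.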

Additional observations from a re-analysis of the deposited data

How the results depend on the processing

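Counts of 4 genes found in MDA-468 only, 1 in both lines and 1 in MCF-10A only were the same counts with p-values up to 1e-10 and with the MDA-468 list reduced to the length of the other. Neither alternative could have changed them, so nothing is read from this. The largest p-value from the authors among the sites of the chosen genes was 6.3e-17, at DNAJC3, rank 2959 in MDA-468. The overlaps of 1 MDA-468 and 1 MCF-10A site were the same counts with 50% of the shorter site required, with strand ignored and with genomic spans. Over the 156 genes, the count in MDA-468 only was 15 as deposited and 7 under both list alternatives, each including the 4 chosen genes. Over protein-coding genes this count also fell, from 2027 (10.1%) to 1091 (5.44%) with p-values up to 1e-10. With the MDA-468 list reduced it was 1018 (5.08%). The median length of the 5 MDA-468 sites was 181 nt by blocks and 211 nt by span, because of skipped introns. Of the 8 genes, the authors' deposited table had 4 that were higher in MDA-468, and 1 (CANX) at an absolute log2 fold change of at least 2. DNAJC3, higher in MCF-10A there, left 0 genes both at that limit and at a log10 false discovery rate up to -5. Strong MDA-468 sites without an overlap that were purine-rich were 11 of 12 at limits of 65% and 70% and 6 at 75%, limits chosen after seeing the data, and 9 of 10 without the chaperones. No row named several genes, so that alternative was not run. No paired analysis was possible because no file holds values per library, and for the same reason no replicate could be left out. Depth is unknown, and site p-values depend on it.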
